A study of Mus musculus with 21 samples.

Results

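The genes for the proteins of the cytosolic ribosome were examined in RNA-seq libraries of sorted mouse Paneth cells, the secretory cells at the base of the small intestinal crypts that release antimicrobial peptides. Members were the protein-coding genes whose symbol begins with Rpl or Rps and a digit, together with Rplp0, Rplp1, Rplp2, Rpsa and Fau, without the Rps6k kinases and without symbols that contain -ps. A gene was kept when it had at least 10 counts in at least 3 libraries. Of the 55414 rows of the count table, 91 genes met the symbol rule and 85 were kept, and all 85 were among the 13070 genes that passed the filter on low counts and were tested. The kept genes were 32 genes of the small (40S) subunit, 42 of the large (60S) subunit, 3 of the ribosomal stalk and 8 paralogs, retrogenes or genes that only share the start of the symbol. The 6 genes that were not kept were Rpl24, Rpl3l, Rpl10l, Rpl39l, Rpl27rt and Rps27rt.

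The 21 libraries came from C57BL/6J mice, each from the Paneth cells of a single animal as far as the study's text tells, and they fell into 6 groups. SPF mice drank Milli-Q water (SPF Milli-Q, n = 3) or water with ZnSO4, given as 200 mM in the labels (SPF zinc, n = 3), for 7 weeks. Mice with the same waters that were also given broad spectrum antibiotics during the final 3 weeks formed the groups ABX Milli-Q (n = 4) and ABX zinc (n = 4). Germ-free mice, which carry no microbes, formed the groups GF Milli-Q (n = 3) and GF zinc (n = 4). The sources used here do not give the age and sex of these mice.

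A cytosolic ribosome holds a single copy of nearly every ribosomal protein, so these mRNAs are needed in matched amounts and are among the most abundant of any growing cell. Many of them begin with a C followed by a run of pyrimidines, the 5′ terminal oligopyrimidine (TOP) motif, through which the mTORC1 pathway and the protein LARP1 control their translation. Several ribosomal proteins have further roles: Rps6 is a substrate of the S6 kinases, Rpl5 and Rpl11 bind MDM2, Rps27a and Fau are made as fusions with ubiquitin or a ubiquitin-like protein, and Rpsa is also known as the laminin receptor. Paneth cells secrete large amounts of protein, and transcripts of α-defensins (Defa genes) make up much of their mRNA.

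The start sites of members on which the results turn are shown first, since the TOP motif is the sequence that this family is known for. RefSeq promoter windows (GRCm38.p6, 250 bases before to 50 bases after the annotated start) matched 63 of the 85 members. The lines give 15 bases before and 15 bases from the annotated start on the transcribed strand, 5′ to 3′, and capitals mark the whole run of C and T around the matched letters given below. Rpl28 and Rplp2 were chosen because they were called higher in germ-free mice, Rps6 because it was called in both zinc-water comparisons with SPF mice, and Rpl22l1 and Rps10 because they were called between waters after antibiotics.
Rpl28, chr7:4792950-4792979, plus strand: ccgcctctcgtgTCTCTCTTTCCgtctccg
Rplp2, chr7:141447636-141447665, plus strand: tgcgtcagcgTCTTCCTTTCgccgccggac
Rps6, chr4:86857353-86857382, minus strand: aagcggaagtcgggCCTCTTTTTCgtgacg
Rpl22l1, chr3:28805493-28805522, plus strand: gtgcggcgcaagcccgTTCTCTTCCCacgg
Rps10, chr17:27635230-27635259, minus strand: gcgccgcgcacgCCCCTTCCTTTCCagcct

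The windows of Rps4x and Rpl7l1, which were called in several comparisons below, held no such run at the annotated start.
Rps4x, chrX:102189377-102189406, minus strand: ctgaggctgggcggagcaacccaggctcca
Rpl7l1, chr17:46782642-46782671, minus strand: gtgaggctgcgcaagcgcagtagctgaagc

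The letters CTTTT, the letters CTTTC, the letters CTCTT or the letters CTTCC, beginning within 5 bases of the annotated start on the transcribed strand, were found in 24 of the 63 members (38.1%) and in 9.57% of the 9874 tested genes with a window. CCGGAAG holds the core letters bound by ETS factors such as GABPA. It was found on either strand of the 300-base window in 25 members (39.7%) and in 20.3% of the 9874 tested genes. ATGGCGG, a core of the YY1 motif, occurred on either strand in 11 members (17.5%) against 9.42% of these tested genes. TATAA between 40 and 15 bases before the start occurred in 5 members (7.94%) against 2.89%. A gene with both CCGGAAG and ATGGCGG was counted for each. Some genes have several windows, and a gene was counted when any of its windows held the letters. Annotated starts are often some bases away from the used start, so a missing run says only that these letters were not in this window.

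The libraries held 9888174 to 16896714 counts, and the 85 members together held 230365 to 800293 of them. Of the 85 members, 77 had a median of 1000 counts or more over the libraries. Pseudogenes with Rpl or Rps symbols held 0.125 to 0.152 counts for every 100 counts on the members. Genes with other symbols were not in this value, also where they share stretches with a member, as Gm10288 does with Rpl11. In the annotated transcripts of 59 members at least 50% of all 60-base stretches occurred in no other gene, and in the other 26 members, among them Rps12, Rps18 and Rpl9, less than 50% did. How reads that map to several places were counted is not known here, and the levels of these 26 members depend on it.

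Per length, Rps12 had the highest level of all members. Its mean over the 21 libraries was 2767 CPM per kb of transcript (CPM, counts scaled by library size and TMM factor), followed by Rplp1 with 1510.1, Rpl32 with 1383 and Rpl41 with 1381 CPM per kb. Rps12 is a small-subunit protein, and Rplp1, with Rplp2 and Rplp0, forms the stalk that recruits translation factors. The median over all 85 members was 416 CPM per kb, over the 40S genes 552 and over the 60S genes 381. Most 60-base stretches of the Rps12 transcript also occur in other genes. Some annotated transcripts are long (6111 bases for Rpl37 and 5136 for Rps15a), which lowers a level per length.

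The lowest levels belonged to copies outside the core set. Rps23rg1, a retrogene of Rps23, had a mean of 0.924, Rpl35rt of 1.32 and Rpl36al, a paralog of Rpl36a, of 2.42 CPM per kb. The paralogs Rpl3l, Rpl10l and Rpl39l, known from muscle or testis, were close to absent: Rpl10l and Rpl39l had 0 counts in all 21 libraries, and Rpl3l was above 0 in 3 of them.

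A few core genes were listed far below their partners. Rpl24 had a median of 5 counts (0 to 13), Rps10 of 41 counts (11 to 88) and Rpl13a of 454 counts (148 to 796), although each codes for a protein that nearly every ribosome holds. Each of them overlaps another annotated gene on its own strand: 71.5% of the exon bases of Rpl24 lie in Gm28037, 53.6% of those of Rps10 in Gm49804 and 59.3% of those of Rpl13a in Gm45713. These overlapping genes were listed at 0 in every library. Rpl36al (median 43 counts) shares 15.2% of its exon bases with Gm49383, which had at most 3 counts. The levels of these 4 genes are therefore uncertain, and their part in any total is small.

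Over the 21 libraries the members moved together. The correlation of a member's log2 level with the mean of the other 84 members had a median of 0.86 over the members, and it was above 0.8 for 58 and below 0.5 for 8 of them. These points share libraries, depth and scaling, so the value is a description. The 8 members with the lowest correlation were Rps10 (-0.51), Rps23rg1 (-0.10), Rpl13a (0.20), Rpl36al (0.25), Rpl22l1 (0.36), Rps4l (0.40), Rpl35rt (0.42) and Rps27l (0.43). All of them are paralogs, retrogenes or genes that overlap another gene.

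**Figure D1:**
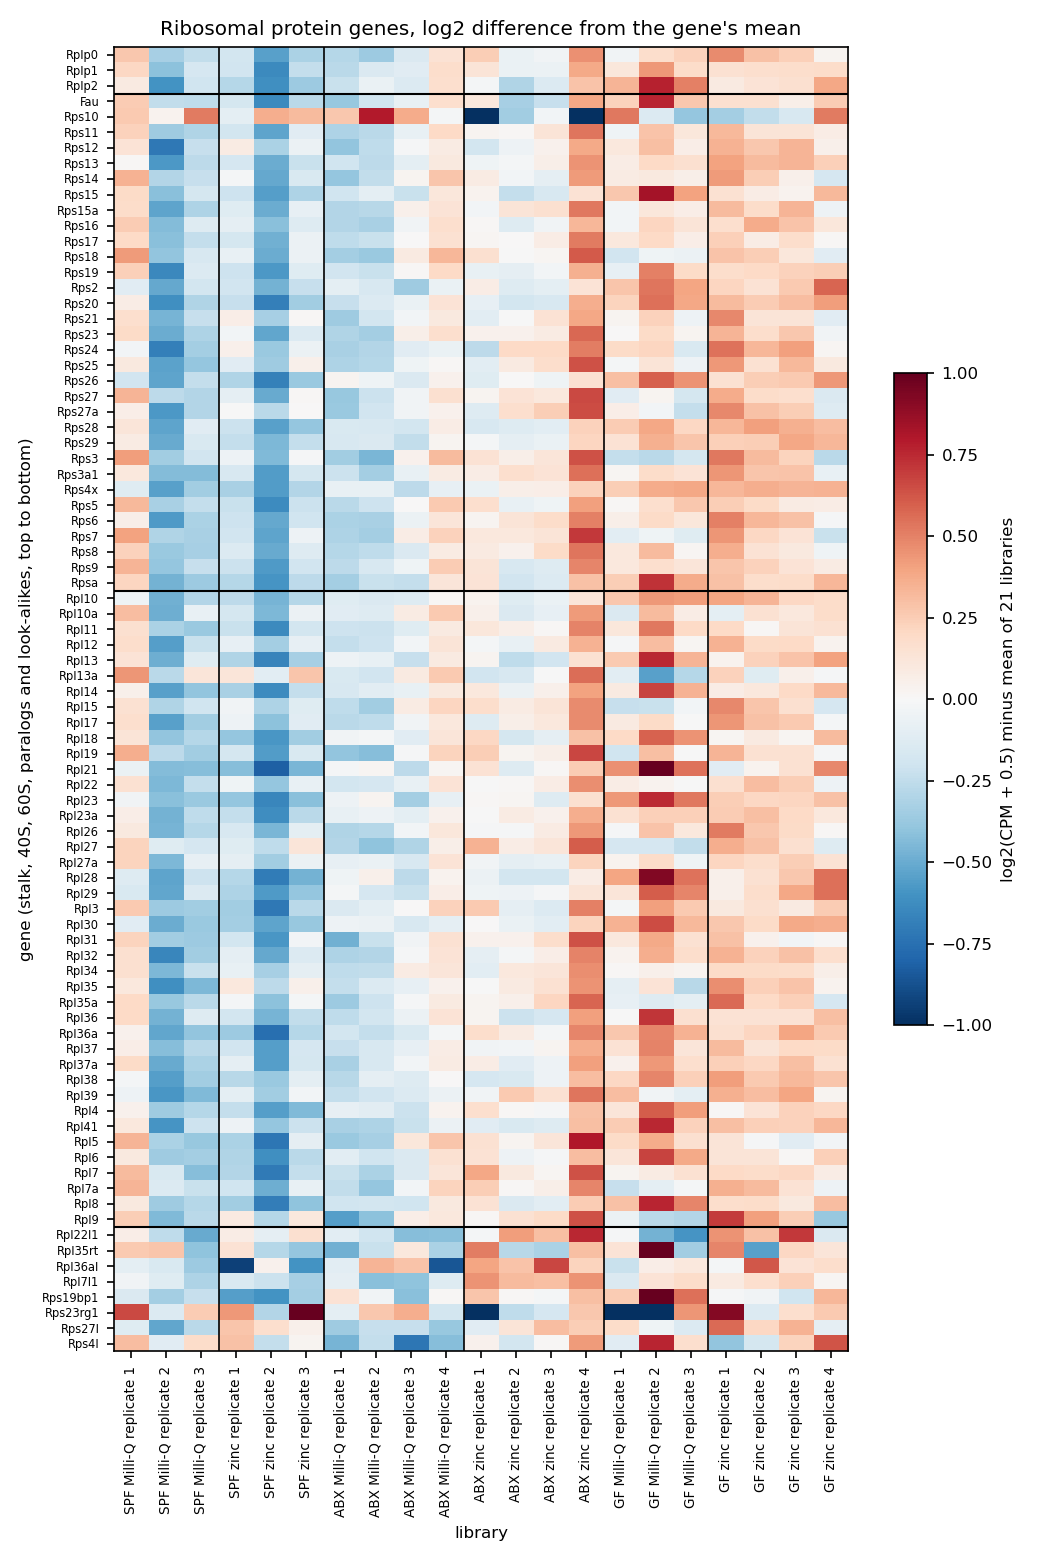
Rows are 84 of the 85 members (stalk, 40S, 60S, then paralogs and look-alikes) and columns the 21 libraries. Colour gives log2(CPM + 0.5) minus the gene's mean over all libraries. SPF zinc replicate 2 and SPF Milli-Q replicate 2 are blue in nearly every row, and ABX zinc replicate 4 is red in 83 of 84 rows.

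Libraries of a single group also differed from each other. In SPF Milli-Q, replicate 1 lay above the gene's own mean in 68 of 85 members, and replicates 2 and 3 in 2 and 4. In SPF zinc the numbers were 11, 3 and 13, and in ABX Milli-Q 4, 7, 20 and 69. ABX zinc libraries were above the mean in 50, 39, 45 and 84 members. All germ-free libraries were above it in at least 57 members, with 57, 70 and 61 in GF Milli-Q and 79, 78, 81 and 61 in GF zinc. The ABX zinc replicate 4 that stood apart also held 6.09% of its counts on 18S ribosomal RNA, against 1.96% to 3.76% in the others of its group, and the part of this in the members' levels was not tested.

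As a share of all counts, the members had the lowest group means in germ-free mice. The share was 3.98% ± 0.44 in SPF Milli-Q (SD, n = 3), 3.24% ± 0.28 in SPF zinc (n = 3), 4.44% ± 0.54 in ABX Milli-Q (n = 4), 4.68% ± 0.75 in ABX zinc (n = 4), 2.68% ± 0.20 in GF Milli-Q (n = 3) and 2.95% ± 0.44 in GF zinc (n = 4). All 3 GF Milli-Q libraries (2.49%, 2.66% and 2.89%) lay below all 3 SPF Milli-Q libraries (3.62%, 3.84% and 4.47%), while the GF zinc and SPF zinc libraries overlapped. The Defa genes took 42.8% to 44.5% of all counts in GF Milli-Q and 24.1% to 33.5% in SPF Milli-Q. Without the Defa genes the members held 4.77% ± 0.39 of the remaining counts in GF Milli-Q and 5.68% ± 0.87 in SPF Milli-Q, and the libraries of these groups then overlapped. In sorted bulk samples, fewer cells of a type and less RNA per cell cannot be told apart.

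**Figure D2:**
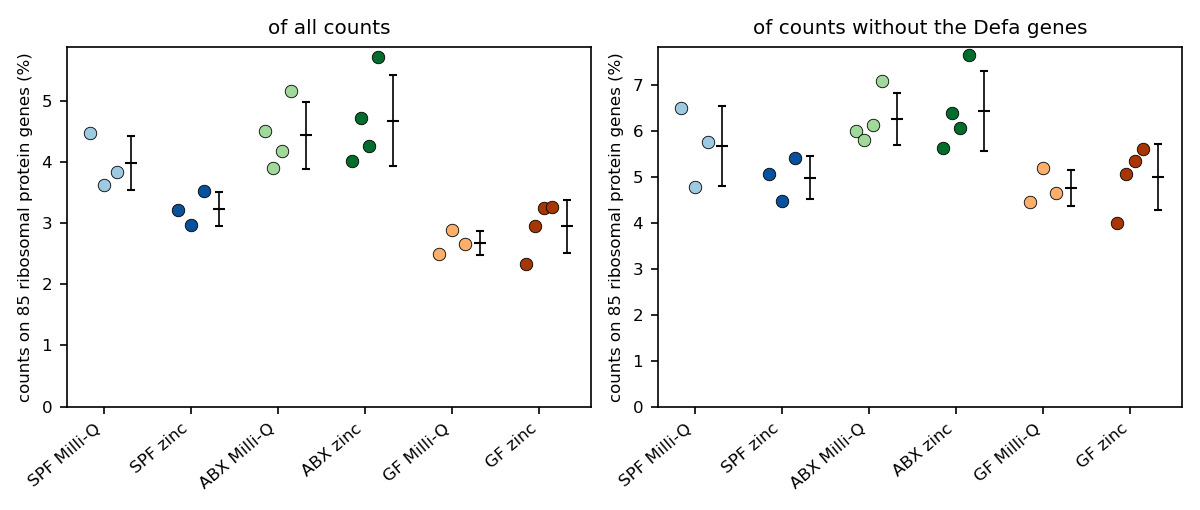
The vertical axes give the percentage of counts on the 85 members, of all counts on the left and of counts without the Defa genes on the right. Points are libraries and bars the mean ± SD of each group. On the left the germ-free libraries lie between 2.33% and 3.26%, and on the right between 3.99% and 5.62%.

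The germ-free comparison on Milli-Q water asked how the Paneth cell transcriptome differs where microbes are absent. The direction of the calls depended on the scaling, with members called higher in germ-free mice under TMM scaling, which sets levels against the bulk of genes, and lower with library totals alone. In the edgeR test on TMM-scaled counts 28 of 85 members were called higher and none lower at an adjusted p under 0.05, with a median log2 fold change of 0.35. Of all 13070 tested genes 12.7% were called higher and 11.6% lower, with a median of -0.03. Calls were more frequent among abundant genes. Of the 592 other tested genes with a mean between 97.6 and 812 CPM, the 10th and 90th percentiles of the members, 29.6% were called higher and 6.76% lower, with a median of 0.15. The share of members called higher (32.9%) lay close to that of these other genes.

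When library totals alone were used, 58 members were called lower and none higher in germ-free mice on Milli-Q water, with a median of -0.59. The same scaling called 74 of all 13070 tested genes higher and 9264 lower, and moved their median to -0.99. The members' calls thus went in the same direction as those of most tested genes. The members' median lay above that of all tested genes by 0.38 with TMM and by 0.40 with library totals, and by 0.19 when GC content and transcript length were included as offsets. The changes below are therefore relative to the other genes of the cell and say nothing about mRNA per cell.

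**Figure D3:**
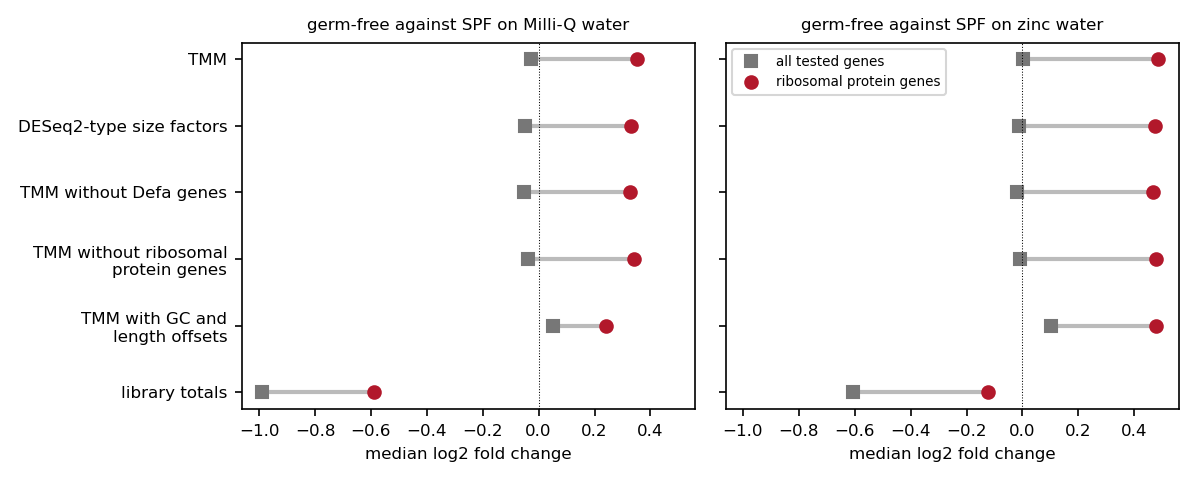
The median log2 fold change of the 85 members (circles) and of all 13070 tested genes (squares) is given for both germ-free against SPF comparisons under 6 scalings. Library totals move both medians below 0, to -0.59 and -0.99 on Milli-Q water, and the members stay above all genes under each scaling.

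Under TMM scaling 18 of 42 60S genes were called higher (median log2 fold change 0.41), with 8 of 32 40S genes (median 0.28), 1 of 3 stalk genes and 1 of 8 paralogs and look-alikes, whereas library totals alone put the members' median below 0. Whether the subunits differ was not tested. Rpl21 and Rpl28, both proteins of the large subunit, were among the members that rose most. Rpl21 (ENSMUSG00000041453, chr5:146769699-146776408, plus strand, GRCm39) was at 436, 654 and 460 CPM in GF Milli-Q and at 302, 234 and 236 CPM in SPF Milli-Q. The groups did not overlap, and the log2 fold change was 1.00 ± 0.18 (SE; adjusted p = 0.000359, edgeR).

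Rpl28 (ENSMUSG00000030432, chr7:4795873-4799713, plus strand, GRCm39) was at 468, 678 and 520 CPM in germ-free mice and at 326, 248 and 310 CPM in SPF mice on the same water, a log2 fold change of 0.91 ± 0.16. In both Rpl28 and Rpl21 every germ-free library lay above every SPF library, and GF Milli-Q replicate 2 was the highest. With library totals alone the fold change of Rpl28 turned to -0.038, and Rpl21 was no longer called. Rpl21 and Rpl28 kept their calls in each fit without a single library of these groups.

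Rps4x, the X-linked gene of a small-subunit protein, was at 674, 736 and 744 CPM in GF Milli-Q against 523, 390 and 448 CPM in SPF Milli-Q (log2 fold change 0.66 ± 0.13, adjusted p = 0.000997 by edgeR). Rpl10, the large-subunit protein that is joined last to the maturing particle, was at 526, 590 and 583 CPM against 422, 312 and 356 CPM (0.64 ± 0.13, adjusted p = 0.00127 by edgeR). The lowest germ-free library exceeded the highest SPF library in both genes. Both changed sign with library totals alone, to -0.29 for Rps4x and to -0.31 for Rpl10.

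Among the stalk genes, Rplp2 rose by a log2 fold change of 0.76 ± 0.18, while Rplp1 (0.35 ± 0.17) and Rplp0 (0.20 ± 0.18) did not pass the test. Rplp2 was at 529, 712 and 594 CPM in GF Milli-Q and at 446, 276 and 364 CPM in SPF Milli-Q. Rpsa and Rpl41 rose by 0.63 and 0.64 on the log2 scale. All of these calls reverse in sign with library totals alone (-0.18 for Rplp2, -0.30 for Rpsa and -0.31 for Rpl41). Fau (0.51 ± 0.19), Rps6 (0.37 ± 0.17), Rpl3 (0.35 ± 0.19) and Rps27a (0.18 ± 0.19) did not pass.

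Rps19bp1 is a member by symbol only. It codes for a protein that binds RPS19 and is not part of the ribosome. Its level was between 16.2 and 28.1 CPM in GF Milli-Q and reached at most 12.1 CPM in SPF Milli-Q, a log2 fold change of 0.91 ± 0.19 (adjusted p = 0.00173, edgeR). The groups did not overlap, and with library totals alone the value was -0.044.

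Leaving out single libraries moved the count for this comparison between 15 and 38. It was 15 without GF Milli-Q replicate 2, 38 when SPF Milli-Q replicate 1 was dropped, and 16 higher and 1 lower when SPF Milli-Q replicate 2 was dropped. Calls over all 13070 tested genes were 1680, 2502 and 2377 in these fits, against 3169 with all libraries. Fitted on these groups only, 18 members and 1297 of all tested genes were called higher. Of the 28 members, 15 were called in each of the 6 fits that left out 1 library. 18S ribosomal RNA held 4.28% to 6.57% of the counts in GF Milli-Q and 1.44% to 2.51% in SPF Milli-Q, and the summed level of 7 Paneth cell markers (Lyz1, Mmp7, Itln1, Ang4, Defa24, Habp2 and Clps, all above 0) was 628460 to 653409 CPM against 203407 to 319508 CPM. These sums are TMM-scaled and are not shares of counts. The TMM factors were 0.628 to 0.661 in GF Milli-Q and 1.11 to 1.38 in SPF Milli-Q. Under TMM scaling all 7 Paneth markers were called higher in germ-free mice, and their part in the result was not tested.

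On zinc water part of the members were again called higher without microbes under TMM scaling, and a few were called lower with library totals alone. Of the 85 members 28 were called higher and none lower, against 3.47% of all tested genes called higher and 2.38% lower, and the members' median log2 fold change was 0.49. Among the 592 other genes of like abundance 11.3% were called higher, with a median of 0.21. By class, 17 of 42 60S genes, 9 of 32 40S genes and 2 of 3 stalk genes were called, and none of the 8 paralogs and look-alikes. With library totals alone, no member was called higher and 3 were called lower, with a median of -0.12 while that of all genes was -0.61. Of all 13070 tested genes, 32 were then called higher and 6278 lower.

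Among the called members, Rpl28, Rps4x and Rps28 had the largest fold changes on zinc water. Rps4x (ENSMUSG00000031320, chrX:101228542-101233014, minus strand, GRCm39) was at 715, 730, 721 and 725 CPM in GF zinc and at 455, 386 and 463 CPM in SPF zinc (log2 fold change 0.73 ± 0.12, adjusted p = 0.00454, edgeR). Rpl28 was at 369, 396, 430 and 522 CPM against 292, 220 and 257 CPM (0.74 ± 0.15). Rps28 was at 226, 239, 229 and 221 CPM against 154, 123 and 137 CPM (0.73 ± 0.14). The groups were apart in all 3 genes, and the GF zinc libraries of Rps4x and Rps28 lay close together.

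Rplp0 (log2 fold change 0.61 ± 0.17), Rplp2 (0.61 ± 0.17), Rpsa (0.62 ± 0.17), Rpl10 (0.62 ± 0.12) and Rps6 (0.59 ± 0.16) were also called higher on zinc water. With library totals alone, the signs of Rplp0 (-0.023), Rps6 (-0.044) and Rpl10 (-0.0039) turned. Rps6 was at 559, 496, 483 and 390 CPM in GF zinc and at 341, 276 and 343 CPM in SPF zinc. Rplp1 (0.51 ± 0.16, adjusted p = 0.0573), Fau (0.51 ± 0.18, adjusted p = 0.0954) and Rpl3 (0.58 ± 0.18, adjusted p = 0.0525) missed the threshold of the edgeR test.

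The SPF zinc libraries carried much of this count. Without SPF zinc replicate 2, in which 3 of 85 members lay above their own mean, 1 member (Rps4x) was called, and without SPF zinc replicate 3, 8 were. Calls over all 13070 tested genes fell as well, from 764 to 51 and to 160 in these fits. The members' median log2 fold change stayed between 0.35 and 0.54 in the fits that left out 1 library. When only these groups were fitted, no member was called higher or lower, and 14 of all tested genes were called. Rps4x was called in all 7 fits that left out 1 library. The comparisons on Milli-Q and on zinc water share no library, but they come from a single fit, and the members move together over the libraries. In these comparisons 25 members, 89.3% of each list of 28, were called higher in both. Over all tested genes 350 were, which is 21.2% of those called higher on Milli-Q water and 77.3% of those called higher on zinc water. Enterocyte markers (9 genes, none at 0 in every library) summed to 832 to 1578 CPM in SPF zinc and 296 to 1794 CPM in GF zinc, and 18S ribosomal RNA held 2.04% to 4.22% and 3.37% to 10.03% of counts. Of the enterocyte markers 1 was called lower in germ-free mice on zinc water. Of 7 Paneth markers 4 were called higher (median log2 fold change 0.89), and of 8 goblet markers 3 were called higher (median 0.76). The Paneth markers summed to 288952 to 343341 CPM in SPF zinc and 448096 to 821046 CPM in GF zinc. Such sums are TMM-scaled, with factors of 0.996 to 1.17 in SPF zinc and 0.522 to 0.834 in GF zinc. The part of these values in the result was not tested.

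**Figure D4:**
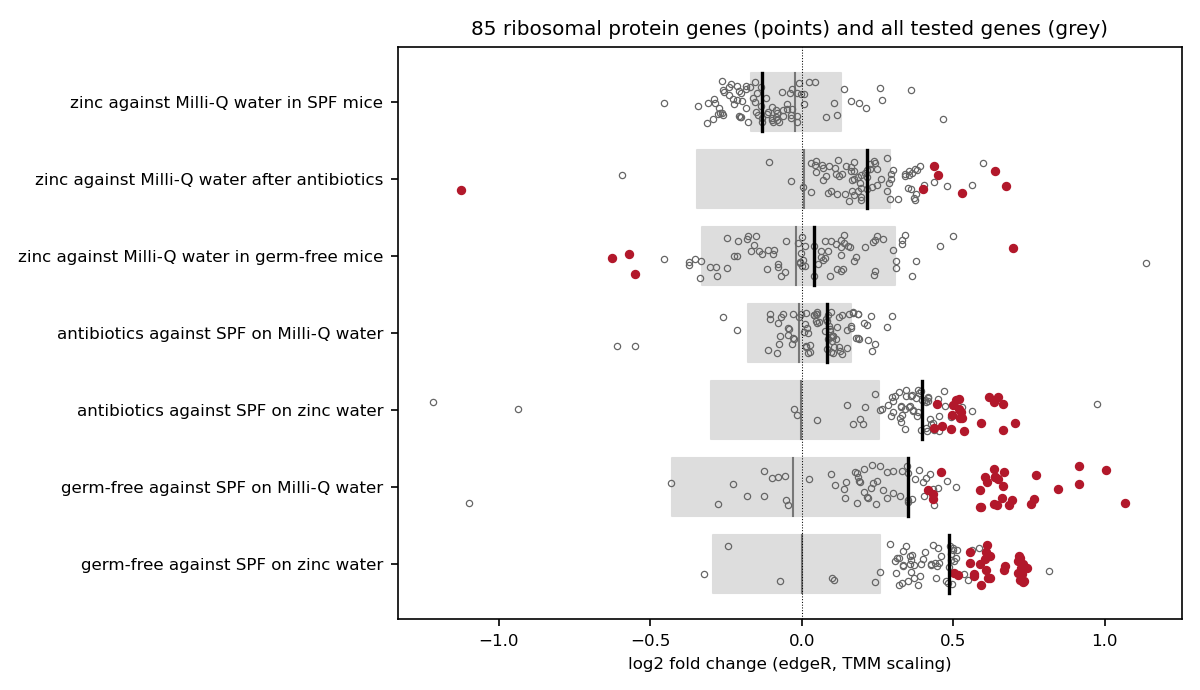
Each row is a comparison and each point a member, with its log2 fold change from edgeR on the horizontal axis. Filled points were called at an adjusted p under 0.05, black bars are the members' medians, and grey boxes and lines give the quartiles and median of all tested genes. In the last 3 rows the members' medians lie at 0.40, 0.35 and 0.49 with 20, 28 and 28 filled points, and library totals alone turn the last 2 medians below 0.

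Antibiotics against SPF on Milli-Q water showed no called member. Of all tested genes 0.199% were called in either direction, the members' median log2 fold change was 0.08, and 2 of 85 members had an unadjusted p under 0.05, against 8.13% of all tested genes. DESeq2 called none either. The median ranged from -0.06 without SPF Milli-Q replicate 2 to 0.25 without SPF Milli-Q replicate 1. Rps4l, a retrogene related to Rps4x, had 11.3, 13.2, 9.31 and 11.6 CPM in ABX Milli-Q and 19.6, 14.4 and 17.9 CPM in SPF Milli-Q, without overlap, at an adjusted p of 0.416 by edgeR.

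On zinc water, part of the members were called higher after antibiotics than in SPF mice. Of the 85 members 20 were called higher and none lower, against 4.76% of all tested genes called higher and 4.21% lower, with a median log2 fold change of 0.40. Among the 592 other genes of like abundance 10.1% were called higher. This direction held with library totals alone, where 27 members were called higher. Of all 13070 tested genes, 446 were then called higher and 160 lower. Under TMM scaling the calls were 14 of 42 60S genes, 4 of 32 40S genes, none of the 3 stalk genes and 2 of 8 paralogs and look-alikes.

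Rpl7 (ENSMUSG00000043716, chr1:16169408-16174886, minus strand, GRCm39), a large-subunit protein, had the largest fold change of the called members. It was at 726, 593, 561 and 861 CPM in ABX zinc and at 452, 339 and 471 CPM in SPF zinc (log2 fold change 0.70 ± 0.17, adjusted p = 0.0156, edgeR). Rpl5, which binds 5S ribosomal RNA, was at 517, 474, 505 and 810 CPM against 374, 281 and 436 CPM (0.67 ± 0.21). Rps19bp1 was at 16.4, 13.6, 13.3 and 16.7 CPM against 9.05, 8.75 and 10.6 CPM (0.67 ± 0.18). Every ABX zinc library lay above every SPF zinc library in these 3 genes, and for Rpl7 and Rpl5 ABX zinc replicate 4 was the highest.

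Rpl7l1, a nucleolar relative of Rpl7 that acts in ribosome assembly, was at 73.6, 67.2, 66.6 and 73.6 CPM in ABX zinc and at 48.4, 46.3 and 42.7 CPM in SPF zinc (log2 fold change 0.62 ± 0.12, adjusted p = 0.00435, edgeR). Its ABX zinc libraries were the 4 highest of all 21. Rpl3 (0.59 ± 0.18), Rps6 (0.52 ± 0.16), Rps4x (0.46 ± 0.12) and Rpl21 (0.63 ± 0.17) were called higher as well. Rplp0 (0.51 ± 0.17, adjusted p = 0.0667), Rplp1 (0.45 ± 0.16, adjusted p = 0.0784) and Rpl10 (0.33 ± 0.12, adjusted p = 0.0858) did not pass the edgeR test.

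Single libraries decided this count too. It fell to 1 without SPF zinc replicate 2, to 2 without ABX zinc replicate 4, to 3 without SPF zinc replicate 3, to 7 without ABX zinc replicate 1 and to 9 without SPF zinc replicate 1. Calls over all 13070 tested genes fell as well, from 1172 to 280, 618, 399, 510 and 602 in the same order. Over all 7 fits that left out 1 library, the members' median log2 fold change lay between 0.26 and 0.46. Rpl7l1 was the member called in all 7 of these fits. Of 9 enterocyte markers 7 were called lower in ABX zinc (summed level 301 to 500 CPM, against 832 to 1578 CPM in SPF zinc). Of 8 goblet markers 4 were called higher (median 0.99), and of 7 Paneth markers 1 was called lower (median -0.49). The part of these values in the result was not tested.

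Zinc against Milli-Q water in SPF mice gave no called member. Of all tested genes 0.138% were called in either direction, the members' median log2 fold change was -0.13, and 70 of 85 members were below 0. At an unadjusted p under 0.05 there was 1 member, against 5.09% of all tested genes, and DESeq2 called none. That member was Rps27l, a p53-inducible paralog of Rps27, at 236, 219 and 202 CPM on zinc and at 179, 136 and 161 CPM on Milli-Q water (0.46 ± 0.15, adjusted p = 0.495, edgeR). The groups of Rps27l did not overlap. The median of the members turned to 0.05 without SPF Milli-Q replicate 1, the library in which 68 members lay above their mean.

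After antibiotics, zinc water gave few calls among the members although many genes changed. Of the 85 members 6 were called higher and 1 lower, while 10.2% of all tested genes were called higher and 11.5% lower. The members' median log2 fold change was 0.22, and 81 of 85 were above 0. The share of members called higher (7.06%) was below that of all tested genes and below the 25.8% of the 592 other genes of like abundance, whose median was 0.18. With library totals alone no member was called higher, 1 was called lower and the median was 0.05. Of all 13070 tested genes, 150 were then called higher and 1295 lower.

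Of the 6 members called higher, 3 were paralogs. Rpl22l1 (ENSMUSG00000039221, chr3:28859585-28861573, plus strand, GRCm39), which can take the place of Rpl22, was at 98.5, 134, 123 and 168 CPM in ABX zinc and at 92.8, 86.9, 73.9 and 74.6 CPM in ABX Milli-Q (log2 fold change 0.67 ± 0.18, adjusted p = 0.0110, edgeR). Rpl7l1 was at 73.6, 67.2, 66.6 and 73.6 CPM against 50.7, 40.1, 40.6 and 49.1 CPM (0.64 ± 0.11, adjusted p = 0.00130, edgeR). Rps27l was at 180, 214, 242 and 231 CPM against 152, 166, 166 and 150 CPM (0.45 ± 0.13). The groups did not overlap in any of these paralogs.

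The core genes Rpl27, Rpl7 and Rpl39 made up the rest. Rpl27 was at 118, 97.4, 101 and 141 CPM in ABX zinc against 75.4, 69.6, 74.7 and 96.2 CPM in ABX Milli-Q (log2 fold change 0.53 ± 0.14). The groups of Rpl7 overlapped. Without ABX zinc replicate 4 only Rpl7l1 was called among the members, and 1734 of all tested genes were. Rpl7l1 was called in all 8 fits that left out 1 library.

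Rps10 was the member called lower. It was at 0.991, 2.11, 2.76 and 1.11 CPM in ABX zinc and at 3.51, 5.25, 3.79 and 2.77 CPM in ABX Milli-Q, a log2 fold change of -1.12 ± 0.32 (adjusted p = 0.0179, edgeR). ABX zinc replicate 3 and ABX Milli-Q replicate 4 lay next to each other. As given above, Rps10 was listed with 11 to 88 counts and overlaps Gm49804 over 53.6% of its exon bases, and it lost its call without ABX Milli-Q replicate 2, ABX zinc replicate 1 or ABX zinc replicate 4.

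**Figure D5:**
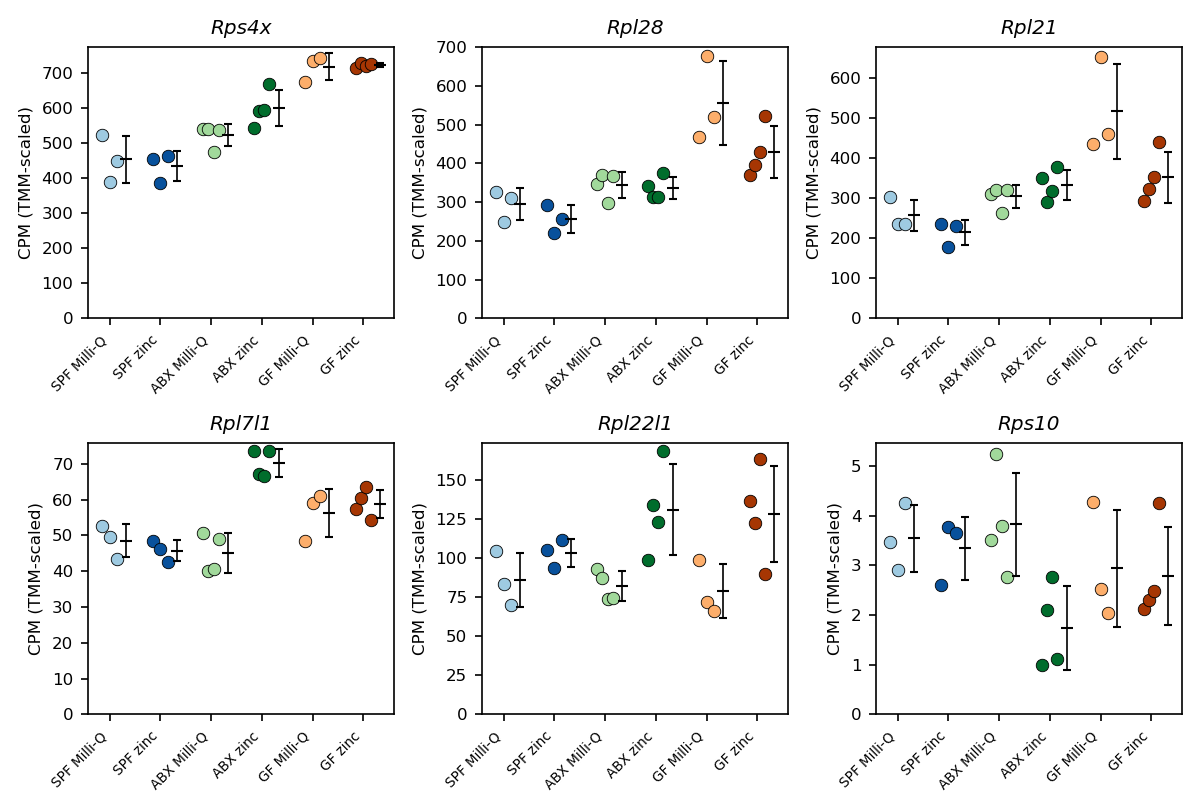
The panels give the TMM-scaled CPM of Rps4x, Rpl28, Rpl21, Rpl7l1, Rpl22l1 and Rps10 in each library (points) with the mean ± SD of each group (bars), with every vertical axis starting at 0. Rps4x lies at 674 to 744 CPM in all germ-free libraries and at 386 to 523 CPM in the SPF libraries, and Rpl7l1 is highest in ABX zinc, at 66.6 to 73.6 CPM.

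In germ-free mice, zinc water gave few calls: 1 member was called higher and 3 lower, against 5.89% of all tested genes called higher and 5.47% lower, with a median log2 fold change of 0.04. Rpl22l1 was at 137, 122, 163 and 89.9 CPM in GF zinc and at 98.7, 71.8 and 66.2 CPM in GF Milli-Q (0.70 ± 0.20). Rpl21 was at 292, 324, 352 and 441 CPM in GF zinc and at 436, 654 and 460 CPM in GF Milli-Q (-0.55 ± 0.16). Rps19bp1 (-0.63 ± 0.18) also fell. The groups overlapped in Rpl22l1, Rpl21 and Rps19bp1.

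None of the 4 calls held in every fit without a library. The count was 0 without GF Milli-Q replicate 2 or without GF zinc replicate 1, 2 or 3, it was 1 without GF Milli-Q replicate 3, and it was 5 higher and 4 lower without GF zinc replicate 4. Calls over all 13070 tested genes, 1485 with all libraries, fell to 5 without GF Milli-Q replicate 2. Without GF zinc replicate 4 they were 1575 higher and 1857 lower. No member was called when only these groups were fitted, where 5 of all tested genes were. With library totals alone 1 member was called higher and none lower, against 689 and 45 of all tested genes.

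The effect of zinc was then compared between contexts. No member was called for the difference between antibiotic-treated and SPF mice, where 0% of all tested genes were called, 14 members had an unadjusted p under 0.05 (18.5% of all tested genes) and DESeq2 called 1. No member was called for germ-free against SPF either, with 0% of all tested genes called, 1 member at an unadjusted p under 0.05 (13.3% of all tested genes) and none called by DESeq2. For germ-free against antibiotic-treated mice 0.207% of all tested genes and no member were called, with 13 members at an unadjusted p under 0.05 (16.4% of all tested genes) and 1 called by DESeq2. The median differences were 0.33, 0.10 and -0.18 on the log2 scale, and the last turned to 0.11 with library totals alone. That members were called in some contexts and not in others does not show that the zinc effect differs between them.

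Paralogs were also set against their core partners within each library. The log2 ratio of Rpl22l1 to Rpl22 was -1.41 ± 0.23 in SPF Milli-Q and -1.14 ± 0.09 in SPF zinc, -1.57 ± 0.29 in ABX Milli-Q and -1.13 ± 0.18 in ABX zinc, and -1.75 ± 0.27 in GF Milli-Q and -1.20 ± 0.26 in GF zinc (SD). The ratio was thus closer to 0 on zinc water in each context, but the libraries on either water overlapped in all 3 contexts. The ratio of Rps27l to Rps27 was -1.62 ± 0.24 in SPF Milli-Q and -1.03 ± 0.32 in SPF zinc, and in all other groups it had a mean between -1.57 and -1.27. The ratio of Rpl7l1 to Rpl7 had means between -3.48 and -3.19. The ratio of Rps4l to Rps4x was -4.71 ± 0.06 in SPF Milli-Q and -5.54 ± 0.14 in ABX Milli-Q, without overlap of the libraries. These ratios cancel the scaling of a library but compare genes of unequal length, so that their differences between groups can be read and their size cannot.

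Other parts of the ribosome supply were covered by lists of genes. Of 33 ribosome biogenesis factors, which process ribosomal RNA and join the subunits, 14 were called higher and none lower in antibiotic-treated against SPF mice on zinc water, with a median log2 fold change of 0.47. On zinc against Milli-Q water after antibiotics 10 were called higher and none lower (median 0.23). Nop58, a core protein of box C/D snoRNPs, had a log2 fold change of 0.85 ± 0.13 in the first and 0.53 ± 0.12 in the second of these comparisons, which share the ABX zinc libraries. Mrto4, Brix1 and Ddx21 rose by 0.53, 0.54 and 0.52 on zinc after antibiotics. Germ-free against SPF on Milli-Q water gave 7 called higher and none lower (median 0.23), led by Eif6 (0.90 ± 0.17), a 60S anti-association factor, with Ncl (0.67 ± 0.16), Fbl (0.74 ± 0.18) and Pes1 (0.44 ± 0.13). On zinc water germ-free against SPF gave 2 called higher and none lower (median 0.14), and zinc in germ-free mice gave 1 called lower (median -0.16). Calls over all tested genes, for these lists and those below, were 10.2% higher and 11.5% lower with zinc after antibiotics, 4.76% and 4.21% for antibiotics against SPF on zinc water, and 12.7% and 11.6% for germ-free against SPF on Milli-Q water. No list was tested as a set. The list values here and below are under TMM scaling. With library totals alone, 74 of 13070 tested genes were called higher and 9264 lower in germ-free against SPF mice on Milli-Q water. Their median was then -0.99. Rises of list genes in that comparison are therefore relative to the other genes of the cell, as for the members.

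Of 21 translation factors and other mRNAs with TOP motifs, 5 were called higher and none lower with zinc after antibiotics (median log2 fold change 0.27), among them Nap1l1 (0.45 ± 0.12), Eif3m (0.54 ± 0.16), Eif3e (0.52 ± 0.16) and Eif2s3x (0.53 ± 0.18). In germ-free against SPF mice on Milli-Q water 4 were called higher and none lower (median 0.15): Eif3f (0.95 ± 0.16), Eef1d (0.85 ± 0.18), Eef1g (0.55 ± 0.13) and Eef2 (0.45 ± 0.14). On zinc water the counts were 3 higher after antibiotics (median 0.40) and 3 higher in germ-free mice (median 0.39), with none lower, and zinc in germ-free mice gave 1 higher and 1 lower (median 0.10). Of the 592 genes between 97.6 and 812 CPM, 25.8% were called higher with zinc after antibiotics and 29.6% in germ-free mice on Milli-Q water.

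The 14 genes of the RNA polymerase I machinery, which transcribes ribosomal RNA, gave 2 called lower with zinc after antibiotics, Taf1a (-0.73 ± 0.22) and Taf1c (-0.61 ± 0.21), with a median of 0.17. In germ-free mice on Milli-Q water Polr1h (0.71 ± 0.20) and Ubtf (0.40 ± 0.14) were called higher and Taf1d (-0.63 ± 0.20) lower. Of 10 noncoding snoRNA host genes, Snhg4 fell with zinc after antibiotics (-0.66 ± 0.21) and Snhg8 rose in germ-free mice on Milli-Q water (0.78 ± 0.21).

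Among 16 genes of the mTORC1 pathway and regulators of TOP mRNAs, Tsc2 (-0.53 ± 0.12), which restrains mTORC1, the S6 kinase Rps6kb2 (-0.94 ± 0.26) and Mlst8 (-0.46 ± 0.16) fell with zinc after antibiotics, and Rheb (0.42 ± 0.15), which activates mTORC1, rose. In germ-free against SPF mice on Milli-Q water Eif4ebp1, the translational repressor 4E-BP1, rose by 1.75 ± 0.22 on the log2 scale, Akt1s1 by 0.65 ± 0.14 and Ddit4 by 0.71 ± 0.25, and Depdc5 fell by 0.52. The remaining members of this list did not pass in these comparisons. In SPF mice on zinc against Milli-Q water and in antibiotic-treated against SPF mice on Milli-Q water no gene of these 5 lists was called, with medians between -0.15 and 0.03 in the first and between 0.00 and 0.39 in the second.

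Marker genes of other cells were also counted. A sum can rest largely on a single gene. Cd74 of the immune list was at 2.56 to 283 CPM and Spink4 of the goblet list at 4373 to 13802 CPM. Olfm4 of the stem and cycling list was at 1887 to 4796 CPM. Of 7 stromal markers, Col1a2 and Col3a1 had 0 counts in every library, and the summed level of the list reached at most 3 CPM, while 8 immune markers, led by Cd74, summed to 9 to 297 CPM. Goblet cell markers (8 genes) summed to 8116 to 18692 CPM, tuft cell markers (6 genes) to 92 to 331 CPM, enteroendocrine markers (7 genes) to 56 to 201 CPM, and stem and cycling cell markers (12 genes) to 2572 to 5752 CPM. Of the stem and cycling list 5 genes were called lower in germ-free against SPF mice on Milli-Q water and 1 higher, and with zinc after antibiotics 5 were called higher and 3 lower. In germ-free against SPF mice on Milli-Q water 5 of 7 enteroendocrine markers were called lower and 1 higher (median -2.07). Of 6 tuft markers 5 were tested and 2 were called lower, and of 8 goblet markers 2 were called higher and 2 lower. These calls were made under TMM scaling as well. The part of these markers in the results for the ribosomal protein genes was not tested.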

How the data were processed

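RNA was isolated from FACS-sorted Paneth cells with an Aurum kit and sequenced from TruSeq stranded mRNA libraries. The authors deposited raw counts per Ensembl gene in a single table. Their processing notes name FastQC 0.12.0, STAR 2.7.0a, DESeq2 and mm39, and the study's methods name GENCODE M30. The sources used here do not give the counting tool or its handling of strand and multi-mapping reads. IDs were matched to GENCODE M39 (54749 of 55414), which gave symbols, GRCm39 coordinates and lengths.

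Counts were tested with edgeR 4.0.16 (filterByExpr, TMM, quasi-likelihood F test, all 21 libraries in a single fit, Benjamini-Hochberg over 13070 genes, threshold 0.05), in R 4.3.3. SE is the absolute log2 fold change divided by the square root of F. DESeq2 1.42.0, other scalings and filters, GC and length offsets, a replicate block and leaving out libraries were alternatives. The scripts were tested on simulated counts. CPM are computed with TMM-scaled library sizes. P-values measure the spread between animals as labelled.

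Named genes were the 3 called members that rose and the 3 that fell most in each of 7 comparisons between pairs of groups, the 3 highest and 3 lowest levels per length, a fixed set of members, and at most 4 genes of each further list. The members, lists and tests were chosen with earlier results of these data known. The values of 1 member, which stays in all counts and totals, are not reported here.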

Additional observations from a re-analysis of the deposited data

Results flagged for a closer look

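In the groups of 4 libraries, the named members and the share of counts were checked for a library far from the others, in 93 checks, of which chance flags about 1 in 20. In 7 of them a library lay apart. In ABX zinc this was replicate 4, with 933 CPM for Rpl41 (680 to 700 CPM in the others), 810 CPM for Rpl5 (474 to 517 CPM) and 210 CPM for Rps28 (160 to 167 CPM). In ABX Milli-Q, replicate 4 was high for Rpl10 (440 CPM, against 395 to 401 CPM) and Rps28 (188 CPM, against 158 to 161 CPM), and replicate 3 was low for Rps4x (475 CPM, against 537 to 541 CPM). In GF zinc, replicate 4 was high for Rps10 (4.25 CPM, against 2.13 to 2.48 CPM), a gene with few counts.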

How the results depend on the processing

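The results depended on the scaling, on the samples in the fit and on single libraries. With library totals alone, germ-free against SPF mice gave 58 members called lower on Milli-Q water (median -0.59) and 3 on zinc water (median -0.12), with none called higher. Of all 13070 tested genes, 9264 were then called lower on Milli-Q water and 6278 on zinc water. Under this scaling the log2 fold changes on Milli-Q water turned for Rpl10 (-0.31), Rpl28 (-0.038), Rpl41 (-0.31), Rplp2 (-0.18), Rps19bp1 (-0.044), Rps28 (-0.51), Rps4x (-0.29) and Rpsa (-0.30), and on zinc water for Rpl10 (-0.0039), Rplp0 (-0.023) and Rps6 (-0.044). Zinc after antibiotics then gave 1 call, which was lower, zinc in germ-free mice gave 1, which was higher, and the germ-free against antibiotics difference of the zinc effect had a median of 0.11. GC and length offsets gave 14 calls for zinc after antibiotics (13 higher) and 3 for zinc in germ-free mice, all higher. Fits on only the groups compared called 18 members for germ-free against SPF on Milli-Q water, 0 on zinc water, 0 for zinc in germ-free mice and 1 for the difference of the zinc effect between antibiotics and SPF. In the same order, 2311, 14, 5 and 244 of all tested genes were called. DESeq2 called 1 member for the difference of the zinc effect between antibiotics and SPF and 1 for germ-free against antibiotics. The cause was not tested.

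Leaving out single libraries moved the number of called members between 1 and 7 for zinc after antibiotics, 0 and 9 for zinc in germ-free mice, 1 and 18 for antibiotics against SPF on zinc water, 15 and 38 for germ-free against SPF on Milli-Q water, 1 and 32 on zinc water, 0 and 1 for the antibiotics against SPF difference of the zinc effect and 0 and 2 for the germ-free against antibiotics difference. It stayed at 0 for the other comparisons. Calls over all 13070 tested genes moved in the same fits. They lay between 1323 and 2674 for zinc after antibiotics and between 5 and 3432 for zinc in germ-free mice. For antibiotics against SPF on zinc water they lay between 280 and 1058. For germ-free against SPF they lay between 1680 and 3280 on Milli-Q water and between 51 and 1567 on zinc water.

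Samples with the same replicate number in their titles did not deviate together (median correlation 0.017, from -0.39 to 0.23). In GF Milli-Q some count columns carry a number other than that of the title. The check used the title numbers and therefore cannot decide whether the samples are paired. The replicate block below used the title numbers as well. A fit with a replicate block called 9 members for antibiotics against SPF on zinc water, 31 and 24 for germ-free against SPF on Milli-Q and zinc water, 6 for zinc after antibiotics and 4 for zinc in germ-free mice, and 0 elsewhere.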
